A study of Homo sapiens with 18 samples.

Results

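Gene deserts are long stretches of the genome in which no protein-coding gene starts. Of the 94527 enhancers that whole human genome STARR-seq called in LNCaP cells, 5940 (6.28%) lay in closed chromatin inside such deserts. They were chosen by position: each was among the 82547 closed enhancers, which overlap no DNase I site of LNCaP, its centre lay more than 500 kb from every transcription start site of a protein-coding gene (GENCODE basic transcripts on hg19, 20176 genes), and it shared no base with an ATAC-seq peak of TSA-treated or vehicle-treated cells. Beyond the call as an enhancer, no level of STARR-seq activity entered the choice. The remaining 73990 closed enhancers without an ATAC-seq peak, called the other closed enhancers here, served for comparison.

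LNCaP is an established line of androgen-responsive human prostate cancer cells. The study holds 18 samples: 3 libraries each of ATAC-seq and mRNA-seq after 100 ng/ml of the histone deacetylase inhibitor trichostatin A (TSA) for 24 h, 3 each after DMSO vehicle for the same time, 3 of mRNA-seq from untreated cells, and 2 STARR-seq output replicates harvested at 72 h against 1 input plasmid library. The inserts of that library were sheared from commercial human genomic DNA and not from LNCaP, and they were tested on episomal plasmids, outside their native chromatin. Both outputs were pooled before peaks were called, and each ATAC-seq list was called on its 3 pooled libraries, so no value below has an error between replicates. The regions are not replicates of a condition, and intervals cover counting error or the spread between regions only.

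In STARR-seq each fragment sits downstream of a promoter inside the transcript it drives, so an active fragment raises the amount of its own RNA. An enhancer is a stretch of DNA that binds transcription factors and raises transcription from a promoter that can lie far away. Gene deserts often border genes of development and of the nervous system, and some are known to hold enhancers that act over long distances, while others carry little known function. Much of their sequence comes from transposable elements, among them long terminal repeats of endogenous retroviruses, some of which are known to carry binding sites of p53, the DNA damage response factor.

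Of the 10 strongest desert enhancers, 4 are shown by the 120 bases centred on their summits, because they carry the patterns on which the results below turn. Capitals mark a GATA motif (AGATAAG), an AP-1 motif (TGANTCA) or a p53 decamer, which is 3 purines, a cytosine, 2 bases of adenine or thymine, a guanine and 3 pyrimidines. A pair of decamers end to end makes a full p53 site. Letters are of the hg19 reference, plus strand, 5′ to 3′.
chr1:69521039-69521158, 48.4-fold: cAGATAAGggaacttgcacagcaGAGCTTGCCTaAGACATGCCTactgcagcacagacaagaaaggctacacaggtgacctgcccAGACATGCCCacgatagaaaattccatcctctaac
chrX:4628757-4628876, 46.4-fold: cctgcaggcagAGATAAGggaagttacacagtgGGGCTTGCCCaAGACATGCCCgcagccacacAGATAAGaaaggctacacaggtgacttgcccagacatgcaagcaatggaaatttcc
chr4:31236218-31236337, 32.2-fold: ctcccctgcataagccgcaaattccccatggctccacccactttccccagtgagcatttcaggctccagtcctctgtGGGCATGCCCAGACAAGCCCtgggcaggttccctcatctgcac
chr18:36520903-36521022, 26.8-fold: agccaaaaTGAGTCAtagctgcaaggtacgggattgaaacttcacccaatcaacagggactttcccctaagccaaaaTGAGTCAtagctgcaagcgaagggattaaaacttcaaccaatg

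The enhancer on chromosome 1 and the one on chromosome X are kin: both place a GATA motif ahead of a pair of p53 decamers with a single base between them. On chromosome 4 the decamers lie end to end and form the full p53 site. The enhancer on chromosome 18 has no decamer and repeats the same AP-1 motif in tandem.

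Members above 10-fold also shared sequence with each other on different chromosomes. Among the 84 desert enhancers above 10-fold, 40 (47.6%) held at least 1 word of 24 bases in common with another of the 84, and linking all that shared a word gave 9 sets, the largest of 13 and 10 enhancers. Of all 5940 members 44.3% shared a word with some other member, though there with a far larger set to match. No such share is given for the other closed enhancers above 10-fold. These words were picked after their values were seen and get no test. The first group below holds the strongest member and is shown as the shared word with 18 bases on either side, turned to 1 orientation, with GATA motifs and p53 decamers in capitals.
chr1:69521017-69521076, plus strand, 48.4-fold: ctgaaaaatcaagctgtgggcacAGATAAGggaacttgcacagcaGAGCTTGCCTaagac
chr2:140622511-140622570, plus strand, 29.6-fold: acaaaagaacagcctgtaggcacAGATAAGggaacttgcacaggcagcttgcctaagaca
chr14:46262392-46262451, plus strand, 19.6-fold: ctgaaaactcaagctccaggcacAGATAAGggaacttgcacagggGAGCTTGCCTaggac
chrX:113314695-113314754, plus strand, 12.9-fold: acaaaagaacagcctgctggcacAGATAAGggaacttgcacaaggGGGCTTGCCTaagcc
chr10:9867502-9867561, plus strand, 11.7-fold: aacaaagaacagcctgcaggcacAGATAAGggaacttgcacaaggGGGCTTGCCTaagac
chr16:65803206-65803265, minus strand, 6.91-fold: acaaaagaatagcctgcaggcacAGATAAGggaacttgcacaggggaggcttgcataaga

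All 6 of these carried the GATA motif inside the shared word, and 4 of the 6 had a p53 decamer within the stretch shown. The genome held 25 exact copies of that word, and 20 of them lay inside a closed enhancer of the series, 8 of the 25 copies being in deserts. A second group of 4 members, on chromosomes 1 and 4 near the centromeres, is nearly identical over the stretch: the 3 others match the first at 58 or 59 of 60 bases. Its 2 strongest members are shown for the pair of decamers, which stand 5 bases apart.
chr4:49497056-49497115, plus strand, 31.3-fold: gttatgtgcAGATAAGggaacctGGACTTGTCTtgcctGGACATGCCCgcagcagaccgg
chr1:142834309-142834368, minus strand, 26.8-fold: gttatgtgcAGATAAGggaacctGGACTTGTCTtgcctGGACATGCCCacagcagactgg

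Another group of 5 members on 5 chromosomes, between 12.9-fold and 23.1-fold, shared a word whose strongest copy reads as follows at chr14:46254575-46254634, plus strand: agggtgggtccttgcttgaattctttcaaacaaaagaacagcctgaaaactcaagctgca
Of its 24 exact copies in the genome, 17 lay in a closed enhancer. The member of this group on chromosome X is the same enhancer as in the group with the strongest member, where the stretches around the 2 words overlap. Over the 5 groups formed in this way, between 10 and 21 of the 13 to 32 genomic copies of the word lay in a closed enhancer. The words were not confined to deserts: each lay in 4 to 6 members and in 2 to 15 of the other closed enhancers.

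The p53 decamer went with the strongest activity. It was found in the 300 bases around the summit of 64 of the 84 desert enhancers above 10-fold (76.2%) and of 873 of the 5856 up to 10-fold (14.9%), and in 9 of the 10 strongest. The windows 3 kb to either side of the members held it in 7.21%. This pattern was looked for after the sequences had been read, so it is a description. It was not confined to deserts: of the 720 other closed enhancers above 10-fold, 66.4% held the decamer, and of all enhancers 15.1%.

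Activity was higher in windows with more decamers. Desert enhancers with 0, 1, 2 and at least 3 decamers had a median fold enrichment of 3.27, 3.51, 4.04 and 17.8, over 5003, 812, 115 and 10 enhancers. The share above 10-fold was 0.40%, 4.31% and 20.0% with 0, 1 and 2 decamers, and 6 of the 10 with at least 3 were above it. That class is small, and the exact 95% interval (Clopper-Pearson) of its share, which takes the windows as independent, ran from 26.2% to 87.8%. Among the other closed enhancers the shares above 10-fold were 0.385%, 2.82%, 15.2% and 31.6%. In the same order the median scaled input of the members was 11.2, 11.8, 11 and 10.6 fragments, and its part was not tested.

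**Figure D1:**
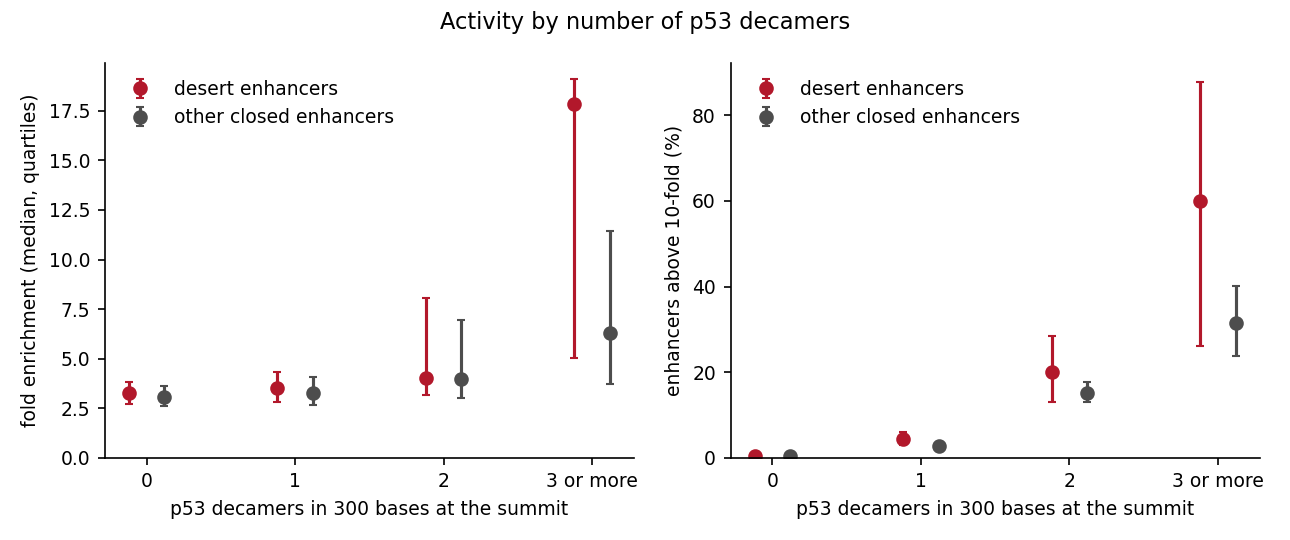
Fold enrichment (left, median with quartiles) and the share of enhancers above 10-fold (right, percent with exact 95% intervals) by the number of p53 decamers in the 300 bases around the summit, for desert enhancers (red) and other closed enhancers (grey). The share above 10-fold is higher with more decamers in both groups, with wide intervals in the class of 3 or more.

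The full p53 site was rare. It lay in 30 desert enhancers (0.505%) and in 0.377% of the other closed enhancers, a difference that did not pass (adjusted p = 0.315 over the 30 motifs, linear regression with standard errors clustered by chromosome). Only 0.00865% of the windows beside the members held it. Within the members, the 30 with the site had a median fold of 7.24 and the 5910 without it 3.30, which is 1.25 ± 0.25 higher on the log2 scale (SE, adjusted p = 0.00017 over 10 contrasts among the members). Of these 30, 9 were above 10-fold. Their median scaled input was 9.01 fragments, against 11.2 in the members without the site. Clustering by chromosome treats any related copies on different chromosomes as independent. The part of the input and of such copies in the difference was not tested.

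Fold enrichment is the ratio of output to scaled input fragments at the summit, each with 1 added, as MACS2 writes it. The scaled input is the level MACS2 set against the summit, never below the genome background, and not a count of input fragments there. Whether it came from the summit itself or from a wider window around it is not in the lists. Over the 5940 desert enhancers it had a median of 3.30 and ran from 1.56 to 48.4, and 506 (8.52%) were above 5-fold, 84 (1.41%) above 10-fold and 19 (0.320%) above 20-fold. Above 10-fold stood 1.11% of all 94527 enhancers and 0.973% of the other closed enhancers. The members exceeded the other closed enhancers by 0.44 percentage points in this share (95% interval 0.12 to 0.76, p = 0.0091, n = 5940 and 73990, linear regression with standard errors clustered by chromosome).

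The strongest desert enhancer (chr1:69520628-69521572, 945 bases) had 465 output fragments over 8.63 scaled input fragments at its summit. The exact Poisson interval of that output is 424 to 509. It lies 513 kb from LRRC7, the nearest protein-coding gene, and 0.435 kb from the start of the noncoding gene LINC01707. The second (chrX:4628344-4629258) had 435 output fragments over 8.40, which is the level MACS2 sets as genome background of the input, and lies 997 kb from PRKX, a protein kinase gene. The third (chr10:55379191-55380061, 34.8-fold) lies 847 kb from MBL2, the gene of a plasma lectin of innate immunity.

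Chromosome 4 holds 3 of the 10. They are chr4:63296978-63297863 (33.1-fold, 443 output fragments, nearest gene ADGRL3, a latrophilin adhesion receptor), chr4:31235839-31236738 (32.2-fold, 302 output fragments, nearest gene PCDH7, a protocadherin) and chr4:49496630-49497546 (31.3-fold, 314 output fragments, nearest gene CWH43). The remaining 4 were between 26.8-fold and 29.6-fold, on chromosomes 2, 18, 1 and X. The GATA motif lay in 6 of the 10 windows of 300 bases, FOXA in 4, AP-1 in 3 and the full p53 site in 2.

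By output alone the order differed. The member with the most fragments was chr4:97664350-97665261, with 483 output fragments over 24.1 scaled input fragments and a fold of 19.3, inside the noncoding gene LINC02267, and it held the full p53 site. Another of the 5 with the most output, chr21:9547837-9548707, had 463 output fragments but 66.1 scaled input fragments and was only 6.91-fold enriched. Its words of 24 bases had a median of 14 copies in the genome, so it counts as repeated sequence, which is any window whose words reach a median of 10 copies.

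Over all members, fold enrichment was 0.080 ± 0.0073 higher on the log2 scale in desert enhancers than in other closed enhancers (SE, adjusted p = 7.9e-10, Benjamini-Hochberg over 6 measures, linear regression with standard errors clustered by chromosome). This is 1.06 times, with medians of 3.30 and 3.09 and quartiles of 2.75 to 3.94 in the deserts and 2.61 to 3.72 elsewhere. The output itself was lower in the deserts: a median of 42 fragments, against 45 in other closed enhancers, a log2 difference of -0.08 ± 0.01 (adjusted p = 1.6e-06). The scaled input was lower still, with medians of 11.2 and 13.5 fragments, a log2 difference of -0.17 ± 0.02 (adjusted p = 2.1e-09).

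The higher fold enrichment stood beside a larger difference in input. At the genome background of the input, which was 8.40 fragments, stood 1629 desert enhancers (27.4%) and 15.4% of the other closed enhancers. With scaled input as a term the log2 difference in fold was 0.018 (95% interval 0.0073 to 0.029, p = 0.0020, n = 5940 and 73990), and with GC content as a term 0.042. Among enhancers at the input background the medians were 3.83 in deserts and 3.72 in other closed enhancers, and with 12 to 14 input fragments they were 3.06 and 3.08. With 17 to 20 input fragments they were 2.68 and 2.74. The input is also the divisor of the fold, so these values do not show what part it has in the difference.

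**Figure D2:**
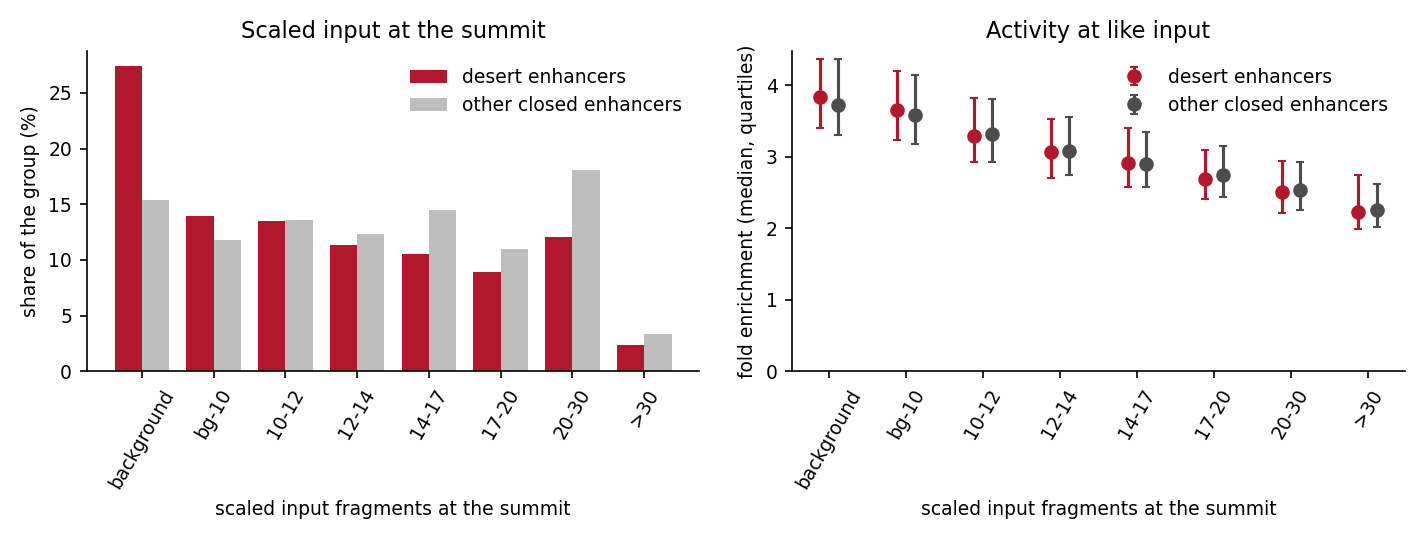
Left, the share of desert enhancers (red) and other closed enhancers (grey) in 8 ranges of the scaled input that MACS2 set against the summit. Right, median fold enrichment with quartiles in the same ranges. Desert enhancers are over-represented at the input background (27.4% against 15.4%), and within a range the medians of the groups lie close together.

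Desert enhancers were poorer in G and C. Their GC content had a median of 44.8%, against 46.1% in other closed enhancers (-1.32 ± 0.13 percentage points, adjusted p = 2.1e-09), while the desert territory as a whole was 36.4% GC and the rest of the genome 41.5%. In both settings the median GC of the enhancers was therefore above that of the whole territory they lay in. The GC content of the sequence next to them was not measured. The peaks had a median length of 521 bases, against 527 bases in other closed enhancers (-9.44 ± 1.74 bases, adjusted p = 1.9e-05), and this call was lost when enhancers at the input background were left out (-1.69 bases, p = 0.47, n = 4311 desert enhancers). Repeated sequence made up 9.71% of desert enhancers and 9.49% of the others, a difference of 0.23 percentage points with an interval of -1.04 to 1.49.

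Deserts held fewer closed enhancers than the rest of the genome. The territory beyond 500 kb covers 317 Mb of sequence that is not N (11.1% of the genome) and held 18.7 enhancers per Mb (exact Poisson interval 18.3 to 19.2), while the remainder held 29.1 per Mb (28.9 to 29.3). Over the 19 chromosomes with at least 5 Mb of desert, density was 0.684 times that of the remainder (95% interval 0.603 to 0.776, p = 6.2e-06, n = 19, linear model of the log2 ratio per chromosome). It was lower in the desert on 18 of the 19. The exception was chromosome Y, with 14 enhancers per Mb of desert and 7.82 per Mb elsewhere. Among the other chromosomes the desert density ran from 9.5 per Mb on X to 24.5 per Mb on 16. The lower GC content and the lower input of the deserts move with this density, and their part in it was not tested, nor was that of the uniqueness of the sequence for alignment.

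The density of this class of closed enhancers was highest at middle distances and low at both ends. Open enhancers and those with an ATAC-seq peak are left out of it by definition. Closed enhancers without an ATAC-seq peak stood at 18.5 per Mb within 1 kb of a start site, 28.3 between 1 and 10 kb, 31.2 between 10 and 50 kb, 29.1 between 100 and 250 kb, 24.9 between 250 and 500 kb, 19.9 between 500 kb and 1 Mb and 16.1 beyond 1 Mb. Enhancers in open chromatin thinned out more steeply, with 71.2 per Mb within 1 kb, 3.98 between 10 and 50 kb, and 0.312 and 0.146 in the 2 desert ranges. The median fold of the closed enhancers moved little along the same axis: 2.96 within 1 kb, 3.09 between 10 and 50 kb, 3.29 between 500 kb and 1 Mb and 3.35 beyond 1 Mb. The median scaled input along it was 16.7, 13.6, 11.3 and 10.6 fragments.

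**Figure D3:**
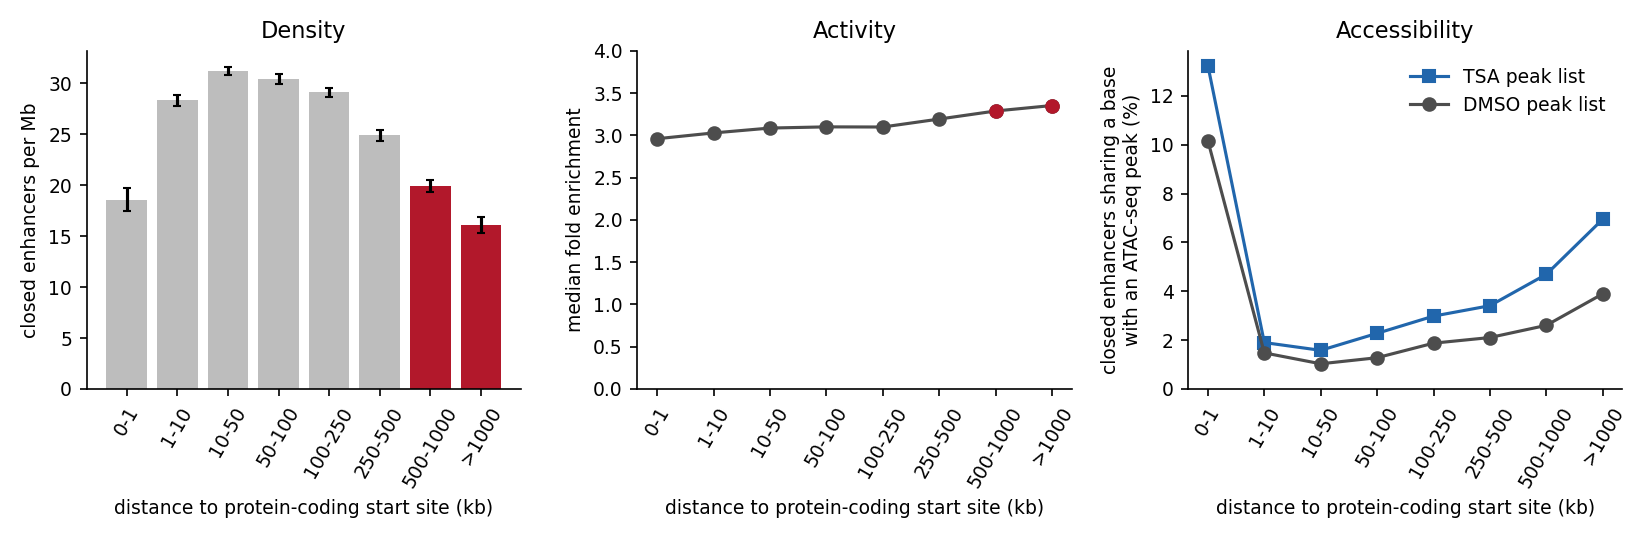
Closed enhancers by distance to the nearest protein-coding start site (kb, 8 ranges), the 2 desert ranges in red. From left to right: closed enhancers without an ATAC-seq peak per Mb with exact 95% Poisson intervals, their median fold enrichment, and the share of all closed enhancers that share a base with an ATAC-seq peak of TSA-treated (blue) or vehicle-treated (grey) cells. Density falls to 16.1 per Mb beyond 1 Mb while the median fold reaches 3.35.

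Within the members the distance carried no difference that passed. The 1545 enhancers beyond 1 Mb had a median fold of 3.35 and the 4395 nearer ones 3.29, a log2 difference of 0.01 (95% interval -0.02 to 0.04, adjusted p = 0.47 over the 10 contrasts). The farthest of all, chr4:33481688-33482167, lies 2760 kb from PCDH7 and had 26 output fragments and a fold of 2.87. The 5 farthest all lie in the same desert between PCDH7 and ARAP2, with folds of 2.56 to 4.22. Just inside the limit, at 500.038 kb from USP24, stood an enhancer of 3.62-fold. Just outside it, at 499.911 kb from the nearest start site, stood one of 3.41-fold.

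A desert by this rule is not free of genes. Of the members, 1739 (29.3%) lay inside the body of a long noncoding RNA gene, 491 (8.27%) inside a protein-coding gene whose starts are all more than 500 kb away, and 3681 (62.0%) in none of these, nor in a pseudogene or an immune receptor segment. Among the other closed enhancers, 49.5% lay in a protein-coding gene and 18.8% in a long noncoding RNA gene. The median distance of members to a start site of any gene, noncoding genes included, was 41.2 kb, and only 5 of the 5940 were farther than 500 kb from every annotated start. Fold enrichment inside long noncoding RNA genes had a median of 3.30, equal to that of the members outside them (log2 difference -0.02, 95% interval -0.05 to 0.02).

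The 491 members inside protein-coding genes sat in 63 genes. CSMD1, a gene of complement-control domains whose body spans 2.06 Mb, held 58, with a median fold of 3.26 and a maximum of 11.6. PTPRT, a receptor tyrosine phosphatase, held 30. FHIT, at a known site of chromosome fragility, held 27. SDK1, a cell adhesion gene, and WWOX, at another known fragile site, held 19 each. Members inside protein-coding genes had a median fold of 3.28 and those outside 3.30 (log2 difference -0.02, 95% interval -0.06 to 0.02).

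The rule found 424 separate stretches, of which 389 held at least 1 member, with a median of 10. The 35 without any made up 3.21 Mb in all. Of the 113 stretches with at least 10 members and 1 Mb of sequence, the density ran from 6.83 to 47.4 per Mb with a median of 16.0, and 8 exceeded the 29.1 per Mb of the rest of the genome. An assembly gap lies in 33 stretches, and 4 hold immunoglobulin or T cell receptor segments, which the annotation does not count as protein-coding. Together these 2 kinds held 403 members (6.78%).

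The most enhancers in 1 desert were 78, on chromosome 12 (126606999 to 128251714) between TMEM132B and TMEM132C, which at 47.4 per Mb (exact Poisson interval 37.5 to 59.2) was also the densest of the 113 stretches with at least 10 members and 1 Mb. Shorter stretches reached higher densities. Next came 72 each in the 2 large deserts of chromosome 4. The one between PCDH7 and ARAP2 (31222038 to 35746135) had 16.0 per Mb, and the one between AGA, a lysosomal enzyme gene, and TENM3, a teneurin of neuronal wiring (178863592 to 182664554), 18.9 per Mb. The desert between MYOM2 and CSMD1 on chromosome 8 held 68, at 36.6 per Mb. The one between TYW1 and AUTS2 on chromosome 7 held 65, at 40.6 per Mb. High density also marked the flanks of a pair of zinc finger factors of blood cell development: 43.8 per Mb between VRK1 and BCL11B on chromosome 14, and 33.6 per Mb between FANCL and BCL11A on chromosome 2.

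**Figure D4:**
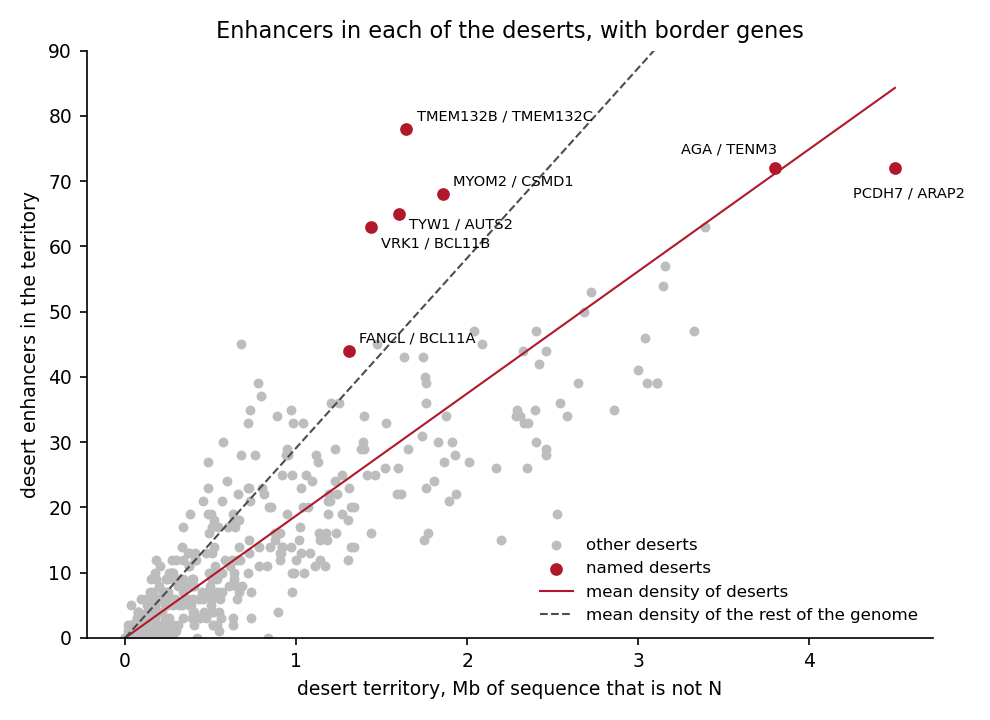
Members per desert against its length in Mb of sequence that is not N, 1 point for each of the 424 deserts. Red points are the deserts with the most members, or with the most per Mb among those with at least 10 members and 1 Mb, written with their border genes. The solid line is the mean desert density (18.7 per Mb) and the broken line that of the rest of the genome (29.1 per Mb). Of the named deserts 5 lie above the broken line.

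The median fold of these 7 deserts ran from 2.81 between VRK1 and BCL11B to 3.51 between PCDH7 and ARAP2, around the 3.30 of the members at large. Their strongest single enhancers were 32.2-fold between PCDH7 and ARAP2, 24.8-fold between AGA and TENM3, 11.6-fold between MYOM2 and CSMD1 and 10.1-fold between VRK1 and BCL11B, while the other 3 deserts stayed below 10-fold. Neighbours lay farther apart in deserts: the nearest other closed enhancer was at a median of 15.1 kb, against 10.4 kb for the other closed enhancers, and 20.3% had one within 5 kb, against 27.3%.

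The protein-coding genes at the borders of deserts with members numbered 704, and 624 of them were in the authors' expression table. Their average log2 CPM had a median of 1.91, against 3.71 for the other protein-coding genes, and 35.6% were below 1 CPM, against 29%. These are averages over libraries that include TSA-treated cells, with no replicate values and no test. Among the genes at the named deserts, CSMD1 stood at 7.65, TYW1 at 5.57 and AUTS2 at 5.31, while TMEM132C stood at -2.62. The LNCaP label held in the same table: all 7 markers of the line were above 1 CPM (4.41 to 11.2), among them FOLH1. Of 12 markers of other cell types 5 were above 1 CPM, with COL1A1 at 6.77 and KRT5 at 6.23, and CD3E was at -2.62.

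Cell adhesion genes and developmental factors stood at many of these borders. Of 12 type II cadherins 8 bordered a desert with members, of 11 non-clustered protocadherins 7, of 22 neuronal leucine-rich repeat, teneurin and latrophilin adhesion genes 13, and of 45 developmental transcription factors 18, while 3.49% of all protein-coding genes did. Of the 8 cadherins 6 were below 1 CPM in LNCaP, and the highest reached a log2 CPM of 3.14. Of the 18 factors, which include SOX9, SOX2, ZEB2 and NR2F2, 8 were below 1 CPM and the highest stood at 8.85. A border gene is defined by the gap beside it, and whether an enhancer acts on it was not measured.

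Short motifs of transcription factors were counted in the 300 bases around each summit, on both strands, for 30 motifs. Of these 6 differed between desert enhancers and other closed enhancers at an adjusted p under 0.05 (20.0% of those tested), 4 with a higher and 2 with a lower share in deserts. AP-1, bound by JUN and FOS proteins, lay in 807 desert enhancers, 13.6%, against 11.6% of the other closed enhancers (2.01 ± 0.43 percentage points, adjusted p = 0.0036). GATA lay in 5.02% and 3.78% (1.24 ± 0.33, adjusted p = 0.0096), FOXA (TGTTTAC, bound by forkhead pioneer factors) in 5.42% and 4.32% (1.10 ± 0.28, adjusted p = 0.0096) and OCT (ATGCAAAT, bound by POU proteins) in 2.09% and 1.52% (0.57 ± 0.19, adjusted p = 0.043). In all enhancers of the series, AP-1 was at 11.6%, GATA at 3.63%, FOXA at 4.71% and OCT at 1.47%.

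KLF/SP (GGGCGG, the GC box of promoters) was lower in deserts, in 4.44% of desert enhancers and 5.21% of the other closed enhancers (-0.76 ± 0.26, adjusted p = 0.043), and it lay in 27.4% of the open enhancers. HNF1 was in 0 of 5940 members (exact 95% interval up to 0.0621%) and in 14 of the 73990 others. Its call therefore rests on counts too low to show a difference. The search of these short letters describes the sequence and not binding.

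The surroundings differed in the same direction. In windows 3 kb from the summits, AP-1 lay in 11% beside desert enhancers and 9.20% beside other closed enhancers, GATA in 5.22% and 4.24%, FOXA in 5.23% and 4.36%, OCT in 3.96% and 3.03% and KLF/SP in 1.98% and 4.26%. With the flanks taken off, as an interaction term chosen after the data were seen, the differences for AP-1, GATA and FOXA no longer passed (0.23, 0.26 and 0.23 percentage points, adjusted p = 0.66, 0.66 and 0.63). KLF/SP turned to 1.51 percentage points higher in deserts (adjusted p = 6.0e-05), and OCT to -0.37 (adjusted p = 0.29). Larger interactions that passed were those of ZEB, at 6.11 percentage points (adjusted p = 1.8e-07), and Homeobox, at -4.01 (adjusted p = 1.7e-07), neither of which differed at the summits alone at an adjusted p under 0.05. Without repeated sequence the difference for FOXA was 0.53 percentage points (adjusted p = 0.23), for OCT 0.58 (adjusted p = 0.081) and for KLF/SP -0.69 (adjusted p = 0.11). These 3 calls were lost, although the differences for OCT and KLF/SP stayed close to those over all enhancers.

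**Figure D5:**
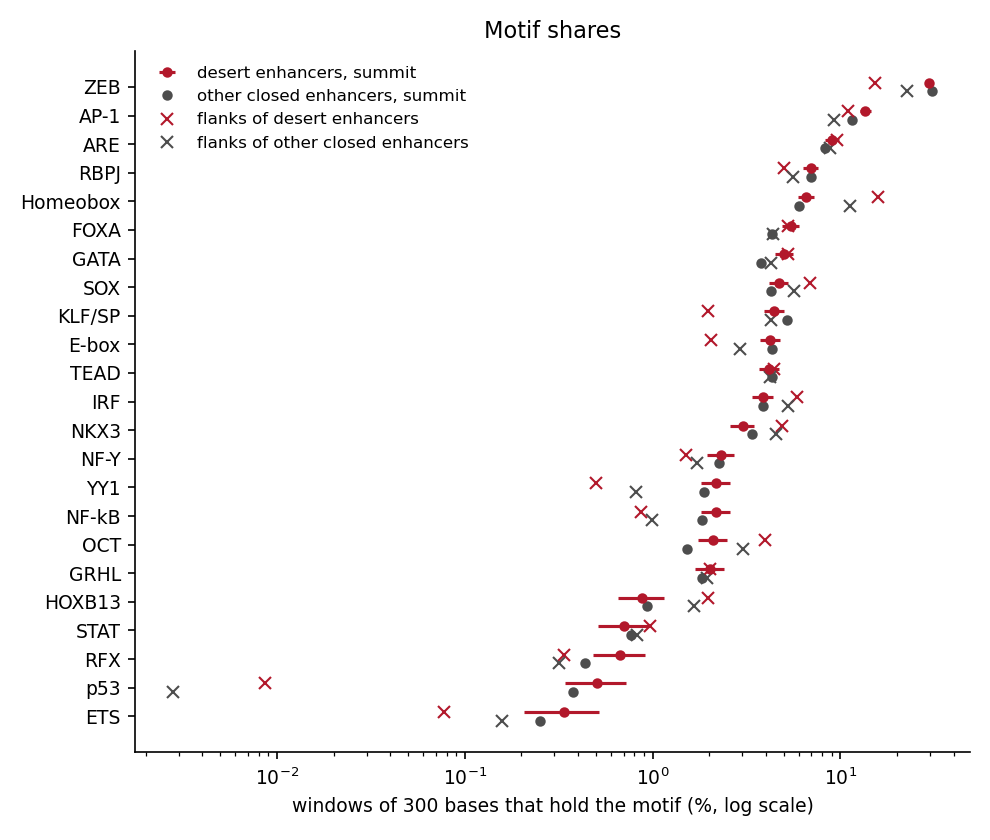
Share of windows of 300 bases that hold a motif (percent, log scale), for the motifs found in at least 20 desert enhancers. Dots are summit windows of desert enhancers (red, with exact 95% intervals) and other closed enhancers (grey), crosses the windows 3 kb from the summits. At AP-1, GATA and FOXA the red cross lies to the right of the grey cross, as the red dot does of the grey dot, and p53 stands far above its flanks in both groups.

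Within the members some motifs went with activity. The 807 with AP-1 had a median fold of 3.46 and the 5133 without it 3.29 (log2 difference 0.10 ± 0.02, adjusted p = 3.9e-05). The median scaled input was 10.7 fragments with AP-1 and 11.3 without it, and its part was not tested. Above 10-fold AP-1 was no more frequent, in 11 of the 84 desert enhancers (13.1%), against 13.6% of all members. The 298 with GATA had a median of 3.37 and those without it 3.30, while the mean log2 difference was 0.22 ± 0.07 (adjusted p = 0.011). GATA was held by 23 of the 84 desert enhancers above 10-fold (27.4%) and by 13.9% of the other closed enhancers above 10-fold. The medians lay close together, and the members with GATA include related copies shown above. Clustering by chromosome treats copies on different chromosomes as independent, and their part in the difference was not tested. FOXA showed 3.19 with and 3.30 without it (0.03, 95% interval -0.05 to 0.12).

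Sharing of words was common among the members at large. Of the 5940, 2632 (44.3%) shared a word of 24 bases with another member, 569 of them in repeated sequence. The 8 largest groups of members that share a word had median folds of 2.58 to 3.64. In 6 of the 8 the word was less frequent in desert enhancers than in other closed enhancers, by share, and in 2 more frequent. One of these 2 stood in 51 desert enhancers (0.859%) and in 0.353% of the others, with 3613 genomic copies and a median fold of 2.58. It is shown for comparison with the rare words above, by 1 copy.
chr16:63031866-63031889, minus strand: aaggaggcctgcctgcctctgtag

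Of the 84 members above 10-fold, 2 (2.38%) lay in repeated sequence, against 9.71% of all members. Inside a protein-coding gene lay 3 (3.57%), against 8.27% of all members, and inside a long noncoding RNA gene 21 (25%), against 29.3%. These shares were not tested. They were spread over 22 chromosomes and had 94 to 483 output fragments, with a median of 155. Their median input was 9.08 fragments, and 34 of them stood at the input background, where fold enrichment is bounded by the assumed input and not by a measured one.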

How the data were processed

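WHG-STARR-seq, ATAC-seq and mRNA-seq of LNCaP were analysed from deposited lists on hg19. For the enhancer lists the authors pooled the output replicates and called peaks against the input with MACS2. The submitters' processing notes also name Bowtie and Picard. The deposited columns hold the MACS2 score, the fold ratio at the summit and the −log10 p-value and q-value. The ATAC-seq lists give an Fseq peak score on 3 pooled libraries per condition, as deposited. Only the average log2 CPM of the authors' edgeR gene table was used. Its fold changes and p-values, and the table of differential ATAC-seq sites, hold comparisons of TSA with vehicle and were not used. The sources used here give no tool versions.

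Whole output counts and the input level that MACS2 set against every summit were solved from fold and p-value. This assumed the MACS2 pseudocount of 1 and a Poisson tail. All 94527 recovered counts lay within 0.041 of a whole number. Library totals are not in the lists, so the depth of each library is unknown.

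Distances used GENCODE 44 mapped to GRCh37. Repeats were measured as the median genomic copy number of words of 24 bases in the 300 bases around the summit. Measures and motif shares were compared by linear regression with standard errors clustered by chromosome (two-sided, Benjamini-Hochberg adjusted). The regression was run on simulated normal values with chromosome effects. That simulation does not cover skewed values, rare motifs or related sequence copies on different chromosomes. Named were the 10 members with the largest fold, 5 with the most output, 5 farthest, the nearest on each side of the limit, the 5 deserts with the most members and 5 densest, 5 host genes, 5 groups of shared words and up to 6 motifs. Some items this rule names are not reported here. Sequence groups among the strongest, the p53 decamer and all counts of it were added after the data were seen. The members and lists were chosen with earlier results of these data known. Python 3.11.15, scipy 1.17.1, pandas 2.3.3 and pysam 0.24.0 were used.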

Additional observations from a re-analysis of the deposited data

How the results depend on the processing

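No paired analysis was possible because the lists are pooled over replicates, and no replicate could be left out. The number of desert enhancers was 14183 at a limit of 250 kb, 1545 at 1000 kb, 2203 at a q-value under 1e-10 and 5 with start sites of all genes. The measures were not fitted with these 5. Of 104 values under other settings 82 counted as unchanged. For tested values this means the same direction and side of the threshold. Counts of desert enhancers and of motifs, some of them among the 82, have neither. Higher fold, lower output, lower input, lower GC and lower density in deserts kept direction and side under every setting run. The log2 fold differences ran from 0.018 to 0.090 and the mean log2 density ratios from -1.40 to -0.35. The peak length difference was -1.69 bases without enhancers at the input background. The difference in repeated sequence, which did not pass, was -0.74 percentage points at 250 kb, -0.21 at a q-value under 1e-10 and -0.015 with the chromosome left out that lowered it most. The number of motifs past the threshold was 10 in windows of 500 bases, 3 without repeated sequence and 3 for summit minus flanks, a setting added after seeing the data, in which KLF/SP turned to 1.51 and OCT to -0.37. The causes were not tested. Leaving out stretches with assembly gaps or immune receptor segments, also added later, changed no call among the 6 measures, and was not run for density or motifs. Input at the genome background limits the fold of the strongest enhancers.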

Other observations

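Closed enhancers in deserts met ATAC-seq peaks more often than all nearer closed enhancers as 1 group, though less often than those close to a start site. Before enhancers with such a peak were set aside, the territory beyond 500 kb held 6313 closed enhancers, and 373 of them (5.91%) shared a base with a peak of either list, against 2.94% of the 76234 nearer closed enhancers (2.96 ± 0.48 percentage points, p = 3.1e-06, n = 6313 and 76234, linear regression clustered by chromosome). Of the 373, 187 met a peak of the TSA list alone, 39 one of the DMSO list alone and 147 both. For the nearer enhancers these counts were 1040, 387 and 817. By distance, the share that met a TSA peak was 13.2% within 1 kb of a start site, 1.58% between 10 and 50 kb, 3.41% between 250 and 500 kb, 4.69% between 500 kb and 1 Mb and 6.95% beyond 1 Mb. The share that met a DMSO peak was 10.2%, 1.03%, 2.11%, 2.61% and 3.89% in the same ranges. Each list was called once on pooled libraries, so the conditions were not tested against each other. All peaks of the lists stood at 9.03 per Mb (TSA) and 8.68 per Mb (DMSO) between 500 kb and 1 Mb, and at 8.93 and 8.40 per Mb beyond 1 Mb.

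Open enhancers were scarce in deserts. Among 11980 open enhancers, which meet a DNase I site, 83 (0.693%) lay beyond 500 kb, where they made up 1.30% of all enhancers, against 12.7% in the series as a whole.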
